A study of Homo sapiens with 8 samples.

Results

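The subject is miR-21 in 786-O cells, described by the 2 mature products of its hairpin, hsa-miR-21-5p and hsa-miR-21-3p (miR-21-5p and miR-21-3p from here on). Both were taken by name from the table of deposited counts, so that 2 of the 3112 miRNAs listed there are described, and both are among its 1482 known miRNAs (the other 1630 are predicted ones that carry a number of the authors). Small RNA of 8 samples of 786-O, an established line of clear cell renal cell carcinoma (ccRCC) without functional VHL, had been sequenced on an Illumina platform. The 4 negative control (NC) samples carried a control plasmid and the 4 circSOD2-sh samples carried the plasmid for knockdown of the circular RNA circSOD2, both brought in with Lipofectamine 3000 and harvested after 48 h per the labels. The methods of the study describe shRNA delivered by lentivirus and selected with puromycin, and which of its shRNAs was used here is not given in the sources used here. The level of circSOD2 itself was not analysed here. Nothing in the labels states that the samples of a group came from separate cultures, so p-values measure the spread between these samples, which may be technical.

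A miRNA hairpin is cut by Drosha and Dicer into a short duplex, of which Argonaute usually keeps the guide arm, while the passenger arm is mostly degraded. In miR-21 the 5p arm is the main guide, and it lowers the products of tumour suppressor genes such as PDCD4. Transcription of the gene is driven by STAT3, AP-1 and NF-kB, and its guide arm is abundant in many carcinomas, ccRCC among them.

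The sequences are shown because the results turn on which arm of the hairpin the reads came from. The hairpin and 1 of the 2 arms were matched by name in RefSeq, which places the hairpin on GRCh38.p14 at chr17:59841266-59841337 on the plus strand and miR-21-5p at chr17:59841273-59841294. In GENCODE release 29 on GRCh38 the MIR21 gene has the same start and end, and it lies within the span of VMP1 on the same strand, from 59707192 to 59842255. It overlaps an exon of a VMP1 transcript annotated as a retained intron, from 59837931 to 59842255, and no annotated UTR. In the mature sequences, given 5′ to 3′, capitals mark the seed, bases 2 to 8, and in the hairpin they mark the stretch of the 5p arm, its bases 8 to 29. miR-590-5p, encoded at chr7:74191213-74191234 on the plus strand, is printed because it is the only other of 2370 mature miRNA names in the RefSeq table with this seed. Beyond base 8 it matched miR-21-5p at 1 of 14 positions.
miR-21-5p: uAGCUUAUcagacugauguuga
miR-590-5p: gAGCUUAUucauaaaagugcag
MIR21 hairpin: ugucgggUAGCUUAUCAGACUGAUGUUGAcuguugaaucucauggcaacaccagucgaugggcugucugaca

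The NC libraries held 9245044, 8960761, 8007172 and 6386872 counts, and the circSOD2-sh libraries held 3972143, 4208276, 3743860 and 3920678. Known miRNAs made up 3347100, 3573638, 3352498 and 2344870 of these in NC and 3776420, 4059249, 3604691 and 3753128 in circSOD2-sh. They were 36.2% to 41.9% of an NC library and 95.1% to 96.5% of a circSOD2-sh library, and the rest were counts of predicted miRNAs. A share of miR-21 therefore depends on whether it is taken of the known miRNAs or of all rows of the table, and both are given. Some rows held the same values in every library, such as miR-28-5p and a predicted miRNA, or miR-199a-3p and miR-199b-3p. Whether reads were counted in several rows was not tested, and totals and numbers of miRNAs include such rows.

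In a pair of libraries, NC replicate 4 and circSOD2-sh replicate 2, markers of other cell types were high, so several results are also given without them. The 5 markers of stroma and smooth muscle, led by miR-143-3p, summed to 35.0, 27.1, 25.7 and 1434 CPM (counts scaled to the known total of the library) in NC replicates 1 to 4, and in circSOD2-sh replicates 1 to 4 the sums were 29.4, 433.6, 73.5 and 40.0. All 5 were highest of their group in NC replicate 4 and in circSOD2-sh replicate 2. The 3 neuronal markers, led over all libraries by miR-128-3p, summed to 998.2, 998.4, 949.4 and 976.6 in the NC libraries and to 756.3, 6931, 659.4 and 700.2 in those of circSOD2-sh. In circSOD2-sh replicate 2 alone miR-124-3p, a miRNA of neurons, had 18220 counts, against 5 to 15 in the other libraries. Neuronal markers thus stood out in this library alone, and stromal markers in both. The 4 leukocyte markers, led by miR-142-5p, summed to 2.99, 3.64, 2.09 and 32.4 in the NC libraries and to 3.44, 20.4, 4.44 and 3.20 in those of circSOD2-sh. Of these miR-142-3p, miR-223-3p and miR-150-5p were at 0 in at least 1 library. The 4 erythroid markers, led by miR-451a, summed to 83.1, 54.0, 46.8 and 324.1 in the NC libraries and to 33.6, 83.5, 36.9 and 46.9 in those of circSOD2-sh, and miR-144-5p was at 0 in some libraries. For the 2 arms of endothelial miR-126, of which miR-126-3p was the more abundant, the sums were 672.8, 633.2, 584.9 and 1235 in NC and 416.5, 713.7, 362.3 and 434.8 in circSOD2-sh. The part of these other transcripts in the results on miR-21 was not tested.

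Of the known miRNAs, miR-21-5p took 24.6%, 25.3%, 25.0% and 24.0% of the counts in NC replicates 1 to 4 and 16.9%, 21.6%, 18.9% and 18.6% in circSOD2-sh replicates 1 to 4. All 4 circSOD2-sh libraries lay below all 4 NC libraries, with circSOD2-sh replicate 2 the nearest to them and circSOD2-sh replicate 1 the farthest. The mean share was 24.7% ± 0.582 over the NC libraries and 19.0% ± 1.95 over the circSOD2-sh libraries (SD, n = 4 each), which is a difference of -5.73 percentage points (p = 0.0286 in an exact permutation test, two-sided, the lowest value that 4 libraries against 4 allow). Without NC replicate 4 and circSOD2-sh replicate 2 the difference was -6.85 points, where the smallest exact p that 3 libraries against 3 allow is 0.1. Shares of known counts lay lower in every circSOD2-sh library than in every NC library for 210 of the 463 known miRNAs tested (45.4%), so such a fall was common. In bulk RNA, fewer cells that express a miRNA and less of it per cell cannot be told apart.

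Of all rows of the table, miR-21-5p took 8.89%, 10.1%, 10.5% and 8.80% in the NC libraries and 16.0%, 20.8%, 18.2% and 17.8% in the circSOD2-sh libraries. Here each circSOD2-sh library exceeded each NC library, so that the direction of the guide arm turned with the total used. A rise of this kind was the common outcome over all rows, with 573 of the 895 miRNAs tested (64.0%) and 325 of the 463 known ones (70.2%) higher in every circSOD2-sh library than in every NC library, against 157 (17.5%) and 11 (2.38%) lower. The mean was 9.56% ± 0.845 over the NC libraries and 18.2% ± 1.97 over the circSOD2-sh libraries (SD, n = 4 each), which is a difference of 8.64 percentage points (exact two-sided permutation test, p = 0.0286). Over the totals behind the deposited CPM, of which the listed counts were 93.3% to 93.9% in the NC libraries and 83.7% to 85.7% in those of circSOD2-sh, the difference was 6.49 points.

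The passenger arm, miR-21-3p, took 0.270%, 0.264%, 0.257% and 0.290% of known counts in NC replicates 1 to 4 and 0.394%, 0.297%, 0.329% and 0.341% in circSOD2-sh replicates 1 to 4. Every circSOD2-sh library was above the NC libraries, although circSOD2-sh replicate 2 and NC replicate 4 nearly met. The mean share was 0.270% ± 0.0144 over the NC libraries and 0.340% ± 0.0407 over the circSOD2-sh libraries (SD, n = 4 each), which is a difference of 0.0698 percentage points (exact two-sided permutation test, p = 0.0286). Such separation upwards was found for 92 of the 463 known miRNAs tested (19.9%). Without NC replicate 4 and circSOD2-sh replicate 2 the difference was 0.0910 points. Set against the other known counts, both arms of miR-21 left out of the total, the circSOD2-sh libraries no longer cleared the NC libraries, with 0.380% in circSOD2-sh replicate 2 against 0.383% in NC replicate 4 (exact two-sided permutation test, p = 0.0571).

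Of all rows, miR-21-3p took 0.0978%, 0.105%, 0.108% and 0.107% in NC and 0.375%, 0.286%, 0.317% and 0.326% in circSOD2-sh. The groups did not overlap on this scale either, as was the case upwards for 64.0% of the miRNAs tested, and the direction was the one seen over known counts. The 95% Wilson interval of a share of known counts in a single library was at most 0.109 percentage points wide for miR-21-5p and 0.0138 for miR-21-3p. Such intervals hold counting error alone, since PCR copies of a molecule were not told apart, and the spread between libraries of a group was larger.

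**Figure D1:**
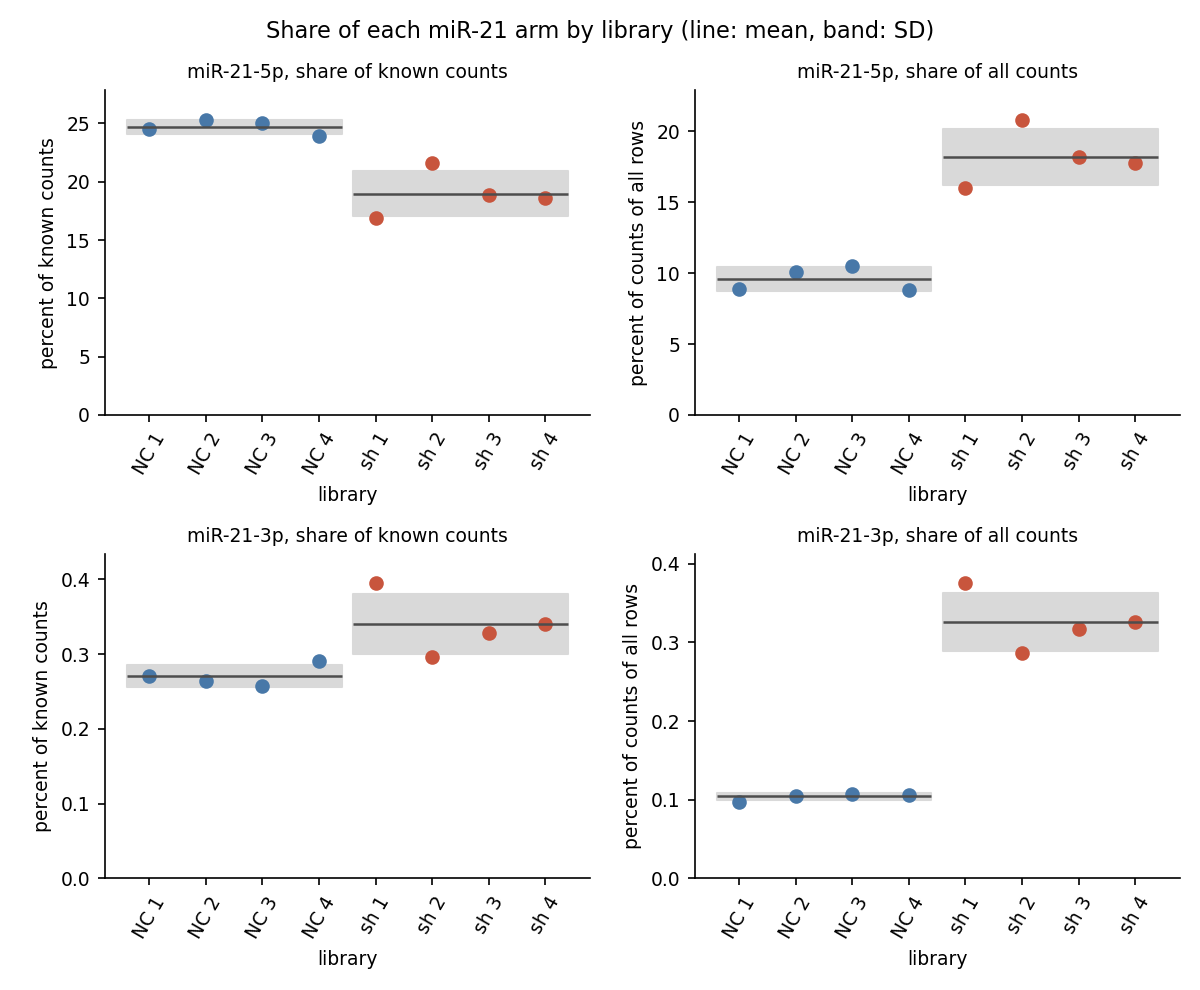
Share of miR-21-5p (top) and miR-21-3p (bottom) in each library, in percent of known counts (left) and in percent of the counts of all rows (right), with the mean of each group of 4 as a line and the SD as a band. The guide arm lay between 16.9% and 21.6% of known counts in circSOD2-sh and between 24.0% and 25.3% in NC but was the higher in circSOD2-sh over all rows, while the passenger arm was higher in circSOD2-sh on both scales.

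The arms ran against each other among the circSOD2-sh libraries. Replicate 2 had the highest share of miR-21-5p and the lowest of miR-21-3p, replicate 1 had the lowest of the guide arm and the highest of the passenger arm, and replicates 3 and 4 lay between them in opposite orders. Among the NC libraries, replicate 4 likewise had the lowest share of miR-21-5p and the highest of miR-21-3p, taken of known counts. Taken of all rows, NC replicate 3 was the highest of NC in both arms, at 10.5% and 0.108%.

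A ratio of the arms within a library does not depend on how the library is scaled. There were 90.9, 95.9, 97.3 and 82.5 counts of miR-21-5p per count of miR-21-3p in NC replicates 1 to 4, and 42.7, 72.7, 57.4 and 54.5 in circSOD2-sh replicates 1 to 4. Every circSOD2-sh library had a lower ratio than every NC library, and the nearest to each other were NC replicate 4 and circSOD2-sh replicate 2, the libraries with raised markers of other cells. The mean ratio was 91.6 ± 6.68 over the NC libraries and 56.8 ± 12.3 over the circSOD2-sh libraries (SD, n = 4 each; exact two-sided permutation test on the log2 ratio, p = 0.0286). The passenger arm accordingly made up 1.08% ± 0.0817 of the counts of both arms over the NC libraries and 1.79% ± 0.383 over the circSOD2-sh libraries (SD, n = 4 each). On the log2 scale the ratio fell by 0.71 (standard error 0.17, 95% confidence interval -1.10 to -0.32, adjusted p = 0.00633 from limma). Without NC replicate 4 and circSOD2-sh replicate 2 together the change was -0.89 (adjusted p = 0.00217 from limma). These held the lowest ratio of NC and the highest of circSOD2-sh, so leaving them out could only widen the difference. Their part in the fall cannot be read from this fit. With hairpins of low counts also admitted to the fit of all 8 libraries, 425 in place of 117, the change of -0.71 had an adjusted p of 0.0510 from limma.

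**Figure D2:**
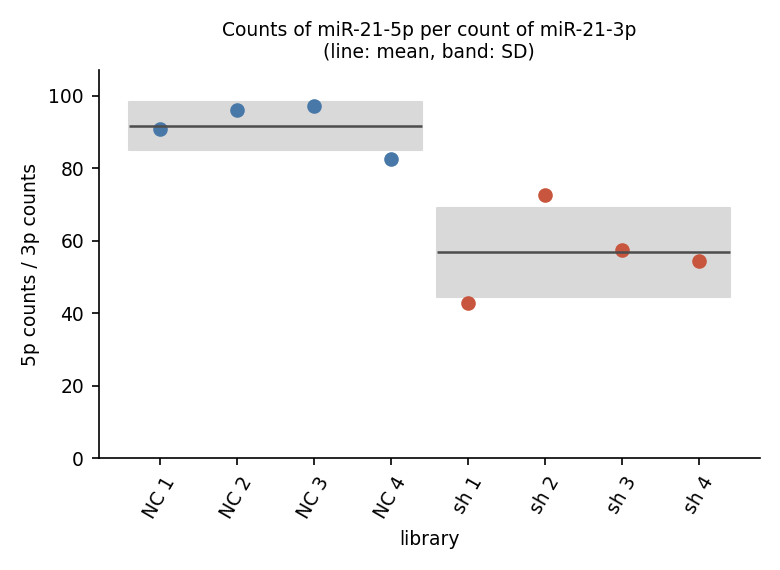
Counts of miR-21-5p per count of miR-21-3p in each library, with the mean of each group of 4 as a line and the SD as a band. The circSOD2-sh libraries sit between 42.7 and 72.7, all below the NC libraries at 82.5 to 97.3.

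Such changes were frequent among hairpins with enough counts. Of the 117 hairpins with both arms tested, 69 had a changed ratio (59.0%, adjusted p under 0.05 from limma), and in 33 (28.2%) the change was towards the 3p arm as in miR-21. With no low-count filter 81 of 425 had a changed ratio, 44 of them towards the 3p arm. The groups did not overlap in 65 of the 117 (55.6%). The absolute change of miR-21 was exceeded by 54 of the hairpins and compared with a median of 0.63 on the log2 scale, so by rank its size lay in the middle. The changes themselves ran much wider, from -15.9 in miR-532 to 5.00 in miR-378a. Counting error was small beside the spread, with a standard error of at most 0.018 for the log2 ratio of a library against an SD of 0.11 among the NC and 0.31 among the circSOD2-sh libraries. The SD in NC was exceeded by 91 of the 117 hairpins and that in circSOD2-sh by 59.

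With a mean log2 ratio of 6.16, miR-21 was among the hairpins with the strongest lean to the 5p arm, and 20 of the 117 leaned more. Next above it were miR-10b, miR-589 and miR-361, at 6.25, 6.29 and 6.37, and next below it let-7e, miR-98 and miR-31, at 6.09, 6.06 and 5.93. Of these neighbours miR-361 and let-7e changed in the direction of miR-21, by -0.87 and -2.18 (adjusted p = 0.000210 and 3.62e-05 from limma). The changes of miR-10b, miR-589, miR-98 and miR-31 were 0.071, 0.50, -0.24 and 0.13, with adjusted p-values of 0.844, 0.337, 0.289 and 0.772 from limma. The hairpins whose ratio followed that of miR-21 most closely over the 8 libraries were miR-93, let-7e and miR-424, with Pearson's r of 0.938, 0.931 and 0.930. These values describe the 8 libraries, and since the libraries form 2 groups they mostly restate that the ratio of each was lower in circSOD2-sh, by 1.53, 2.18 and 2.47 on the log2 scale.

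**Figure D3:**
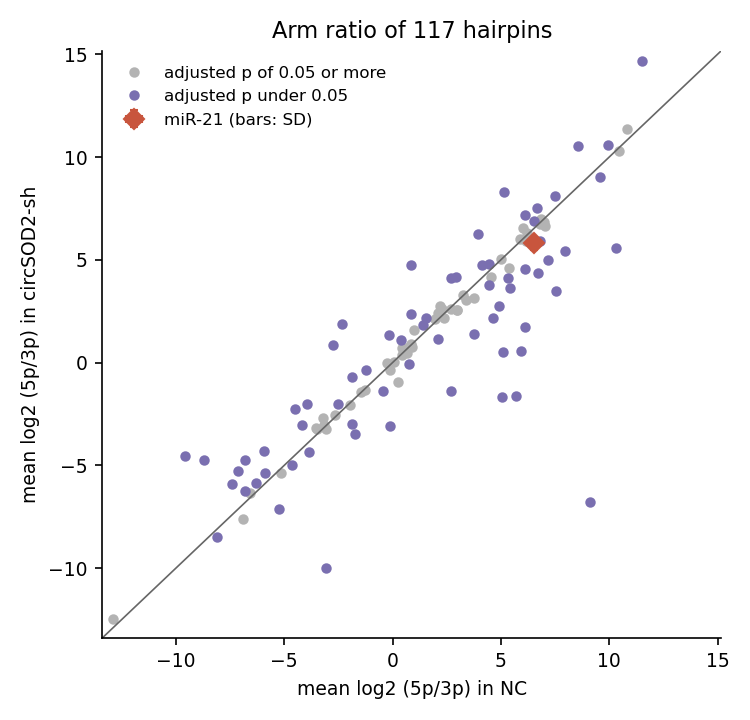
Mean log2 of the 5p counts over the 3p counts of 117 hairpins in NC (horizontal axis) and circSOD2-sh (vertical axis), where each point is a hairpin, coloured by whether its adjusted p from limma was under 0.05, and the line marks equal ratios. miR-21 lies at 6.51 in NC and 5.80 in circSOD2-sh, below the line, with bars for the SD of 4 libraries.

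Scaled by TMM over all rows, which sets the bulk of miRNAs to no change, miR-21-5p was at 126051, 139165, 142972 and 126287 normalized CPM in NC and at 108230, 154566, 136540 and 124000 in circSOD2-sh. The groups overlapped, and circSOD2-sh held both the highest and the lowest value. The log2 fold change was -0.030 (standard error 0.11, 95% confidence interval -0.27 to 0.21, adjusted p = 0.802 from edgeR), so no change of the guide arm was detected on this scale. This depended on the libraries used. Without single libraries the log2 fold change lay between -0.23 and -0.045, and it passed the threshold only without circSOD2-sh replicate 2, at -0.23 (adjusted p = 0.0380 from edgeR), while without circSOD2-sh replicate 3 it was -0.21 (adjusted p = 0.180). The low-count filter and the scaling were redone in these fits, with up to 970 miRNAs tested in place of 895, so such a shift is not that of a library alone. Without NC replicate 4 and circSOD2-sh replicate 2 together it was -0.25 (adjusted p = 0.0165 from edgeR). The median of all miRNAs tested fell too, to -0.145 without circSOD2-sh replicate 2 (303 higher and 358 lower of 969). Without the pair of libraries that median was -0.13 (309 higher and 350 lower of 945). The median log2 fold change of all miRNAs tested was -0.0021 with TMM, and among the 463 known miRNAs tested 214 had a higher fold change than miR-21-5p, an order that hardly depends on the scaling.

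For miR-21-3p the values were 1387, 1451, 1470 and 1531 normalized CPM in NC and 2532, 2127, 2379 and 2275 in circSOD2-sh. Every circSOD2-sh library was above every NC library. The log2 fold change was 0.67 (standard error 0.075, 95% confidence interval 0.51 to 0.84, adjusted p = 2.33e-05 from edgeR), and 116 of the 463 known miRNAs tested had a higher one. In the same comparison 588 of 895 miRNAs differed (65.7%, adjusted p under 0.05 from edgeR), 298 of them higher in circSOD2-sh (33.3%) and 290 lower (32.4%), so calls were common among the miRNAs past the filter. With no low-count filter 655 of 3112 differed.

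The scaling moved both arms by about the same amount and so turned the direction of the guide arm but not that of the passenger arm. Library totals of all rows moved the median log2 fold change of all miRNAs tested to 0.96 and gave 613 higher and 158 lower calls, and totals of known miRNAs moved it to -0.48 over known miRNAs, with 93 higher and 235 lower. The log2 fold change of miR-21-5p was 0.93 with the former (adjusted p = 7.94e-06 from edgeR) and -0.38 with the latter (adjusted p = 0.00160 from edgeR). TMM over known miRNAs only gave 0.014 (adjusted p = 0.877 from edgeR). For miR-21-3p the values were 1.64, 0.33 and 0.72, and all had adjusted p-values under 0.05 from edgeR. Against the median of the miRNAs tested, miR-21-5p thus lay close to it and miR-21-3p above it under each of these.

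**Figure D4:**
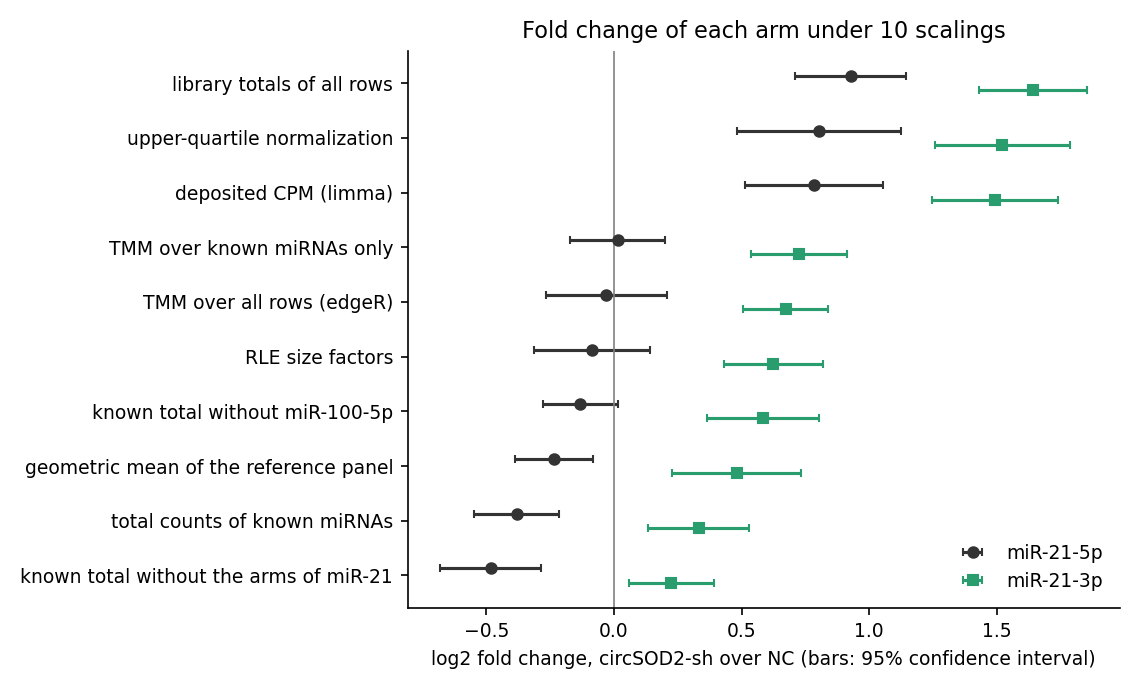
Log2 fold change, circSOD2-sh over NC, of miR-21-5p (circles) and miR-21-3p (squares) under 10 ways of scaling the libraries, with 95% confidence intervals from edgeR or, for the deposited CPM, limma. The guide arm runs from 0.93 to -0.48 and crosses 0, while the passenger arm runs from 1.64 to 0.22 and stays above 0.

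A scale used in qRT-PCR work is the ratio to reference miRNAs. To the geometric mean of 6 of them (miR-16-5p, miR-93-5p, miR-103a-3p, miR-191-5p, miR-423-5p and miR-425-5p), miR-21-5p stood at 125.3, 129.0, 134.2 and 130.5 times in NC and at 99.4, 118.5, 115.6 and 107.6 times in circSOD2-sh. All circSOD2-sh libraries lay below the NC libraries, with means of 129.8 ± 3.71 and 110.3 ± 8.60 (SD, n = 4 each; exact two-sided permutation test, p = 0.0286). With this panel as the scale, edgeR called 355 of all 895 miRNAs tested lower and 243 higher, at a median log2 fold change of -0.195. For miR-21-3p the multiples were 1.38, 1.35, 1.38 and 1.58 in NC and 2.32, 1.63, 2.01 and 1.97 in circSOD2-sh. They lay higher in all 4 circSOD2-sh libraries, by the least in circSOD2-sh replicate 2. The references themselves were not steady, and with TMM over all rows 4 of the 6 were higher in circSOD2-sh, 1 was lower and 1 did not pass (median log2 fold change 0.38, against -0.0021 over all 895 tested, of which 33.3% were higher and 32.4% lower). Among them miR-16-5p fell by 0.58 on the log2 scale and miR-425-5p rose by 1.00 (adjusted p = 0.000157 and 3.37e-06 from edgeR), whereas with library totals all 6 were higher (613 of all 895) and with totals of known miRNAs 1 was higher and 2 were lower (93 and 235 of all 463). Without NC replicate 4 and circSOD2-sh replicate 2 there were 4 higher and 2 lower (median 0.24, against -0.13 over all 945 tested, with 309 higher and 350 lower), and miR-423-5p joined those lower, at -0.68 (adjusted p = 0.0219 from edgeR).

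In all 4 NC libraries miR-21-5p was the most abundant known miRNA, and miR-146a-5p, a brake on NF-kB signalling, came next with 11.3% to 11.5% of known counts. In circSOD2-sh it was the most abundant in replicates 2 and 4 and came behind miR-100-5p in replicates 1 and 3. There were 6.66, 7.40, 7.49 and 7.05 counts of miR-21-5p per count of miR-100-5p in NC and 0.819, 1.24, 0.986 and 1.01 in circSOD2-sh. In circSOD2-sh these neighbours in the order did not differ beyond their spread, with 19.0% ± 1.95 and 18.9% ± 1.36 of known counts (SD, n = 4 each). The share of miR-100-5p had been 3.46% ± 0.154 (SD, n = 4) in NC, and its log2 fold change was 2.79 (adjusted p = 4.50e-10 from edgeR). With miR-100-5p left out of the total, a choice made after the data were seen, miR-21-5p took 24.8% to 26.2% of the other known counts in the NC libraries and 21.2% to 26.1% in those of circSOD2-sh, and the groups overlapped (exact two-sided permutation test, p = 0.114). For miR-21-3p they did not overlap on this scale, at 0.266% to 0.301% and 0.359% to 0.497%. With this total edgeR called 109 of the 463 known miRNAs tested higher and 168 lower. By the mean over all 8 libraries the next were miR-30a-5p and miR-29a-3p, with shares of 7.51% and 3.41%. In NC these ranked 3 and 4, ahead of miR-100-5p at 6, and in circSOD2-sh miR-30a-5p ranked 3 to 4 and miR-29a-3p 6 to 7. By its counts miR-21-3p ranked between 41 and 42 among the known miRNAs in the NC libraries and between 36 and 43 in circSOD2-sh.

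**Figure D5:**
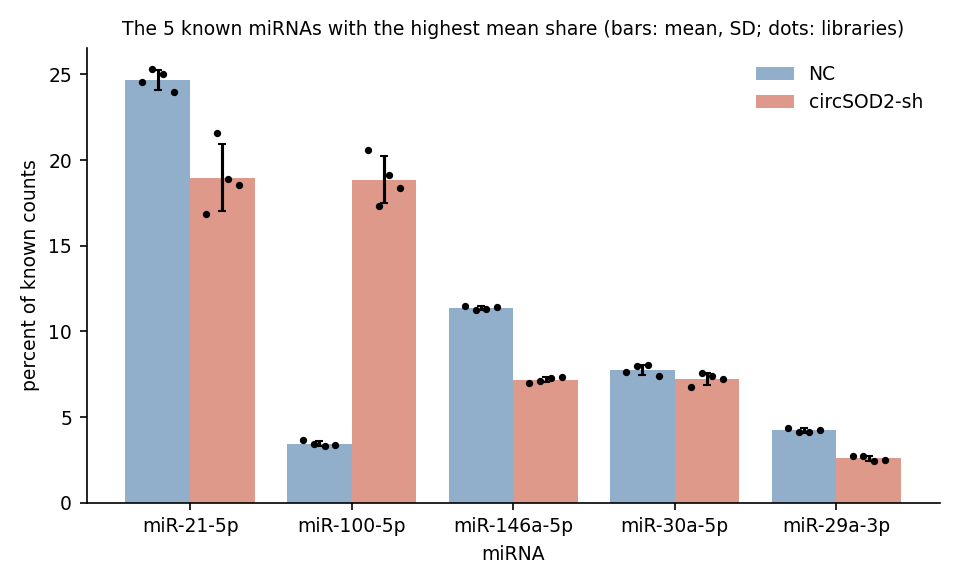
Share of known counts, in percent, of the 5 known miRNAs with the highest mean share over all 8 libraries, shown for NC and circSOD2-sh, with bars for the mean, whiskers for the SD and dots for the 4 libraries of each group. miR-21-5p leads clearly in NC at 24.7% and is level with miR-100-5p in circSOD2-sh at 19.0% and 18.9%.

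The other miRNA with the seed of the guide arm hardly added to it. miR-590-5p, printed above, had 0 to 2 counts in each library, and did not pass the low-count filter.

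Of the 6 listed miRNAs whose genes are driven by STAT3, AP-1 or NF-kB as MIR21 is, none was higher, 4 were lower and 2 did not pass with TMM over all rows (median log2 fold change -0.35, against -0.0021 over all 895 tested, of which 33.3% were higher and 32.4% lower). The most abundant, miR-146a-5p, fell by 0.31 and miR-222-3p by 0.43 (adjusted p = 0.00224 and 0.00137 from edgeR), and miR-221-3p was at -0.078 (adjusted p = 0.332). With library totals all 6 were higher, at a median of 0.61 against 0.96, where 613 of 895 were higher. Again 4 were lower without NC replicate 4 and circSOD2-sh replicate 2, at a median of -0.49 against -0.13, where 350 of 945 were lower.

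Of other miRNAs known to be raised in ccRCC, all 5 of the list were lower with TMM over all rows (median log2 fold change -0.61, against -0.0021 over all 895 tested, of which 32.4% were lower), among them miR-210-3p, the miRNA of the hypoxia response, at -0.54 and miR-224-5p at -0.61 (adjusted p = 0.0150 and 0.0230 from edgeR). With library totals 2 were higher and 1 lower, against 613 and 158 of 895. All 5 were also lower without NC replicate 4 and circSOD2-sh replicate 2, at a median of -0.78 against -0.13, where 350 of 945 were lower. Of the 5 known to be lowered in ccRCC, 4 were tested, and 2 were lower (median -0.77, against -0.0021 over all tested, of which 32.4% were lower), miR-141-3p and miR-200c-3p of the epithelial miR-200 family, at -2.35 and -1.50 (adjusted p = 0.00348 and 0.0148 from edgeR). These were also raised in NC replicate 4, with 113 counts of miR-141-3p against 37 to 55 in the other NC libraries. With library totals 2 of this list were higher and 1 lower, again against 613 and 158 of 895. Tested without NC replicate 4 and circSOD2-sh replicate 2, all 5 entered the fit and there was 1 higher and 2 lower, at a median of -0.23 against -0.13 over all tested, with 309 higher and 350 lower of 945. The 1 that was higher there was miR-204-5p, which the filter had left out of the main fit. It had 0 to 1 counts in NC replicates 1 to 3 and 7 to 9 in circSOD2-sh replicates 1, 3 and 4. Since it passed the filter only through the circSOD2-sh libraries, its higher call followed from the filter and says nothing about this list.

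MIR301A and MIR454, miRNA genes of the same chromosome arm, lie 690.0 and 703.4 kb before MIR21 on the opposite strand. Of their 4 products in the table, miR-454-3p and miR-454-5p were higher, at 0.50 and 0.85 (adjusted p = 0.0457 and 0.00143 from edgeR), and miR-301a-3p and miR-301a-5p were at -0.20 and 0.074 (adjusted p = 0.362 and 0.549). Over all 895 tested 33.3% were higher and 32.4% lower. There was 1 higher and 1 lower without NC replicate 4 and circSOD2-sh replicate 2, as miR-454-3p was at 0.15 and miR-301a-3p at -0.49 (adjusted p = 0.319 and 0.0172 from edgeR), against 309 and 350 of all 945. With totals of known miRNAs 1 of the 4 was higher and 2 were lower, against 93 and 235 of 463, and with library totals all 4 were higher, against 613 of 895.

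The known miRNAs whose share of known counts followed that of miR-21-5p most closely over the 8 libraries, among 247 with enough counts, were miR-516a-5p, miR-301a-3p and miR-30e-5p, with Pearson's r of 0.981, 0.979 and 0.979. For miR-21-3p they were miR-4485-3p, miR-26a-5p and miR-1260b, with r of 0.949, 0.928 and 0.911. As with the hairpins, these values hold the difference between the groups and the totals that all shares have in common. The followers of the passenger arm were all higher in circSOD2-sh with TMM over all rows, by 1.67, 0.51 and 1.16 on the log2 scale (adjusted p under 0.05 from edgeR). Over all 895 tested 33.3% were higher and 32.4% lower, and these 3 had been picked for a share that followed miR-21-3p. With totals of known miRNAs without miR-21, miR-26a-5p was at 0.062 (adjusted p = 0.202 from edgeR), while miR-4485-3p and miR-1260b still passed. The followers of the guide arm were at -0.63, -0.20 and 0.13 with TMM over all rows, with adjusted p-values of 0.0234, 0.362 and 0.276 from edgeR. Without NC replicate 4 and circSOD2-sh replicate 2 they were at -0.90, -0.49 and -0.066 (adjusted p = 0.00145, 0.0172 and 0.516 from edgeR), where 350 of 945 were lower.

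The label of the cells was set against the markers of kidney epithelium. The 5 markers of renal tubule, led by miR-30a-5p, summed to between 76112 and 81233 CPM of the known total in the NC libraries and between 68227 and 76395 in circSOD2-sh. At least 97.3% of each sum was miR-30a-5p, which many other cell types also express. The 4 others were all highest of the NC libraries in NC replicate 4, where they summed to 2021 CPM of the known total against 698.6 to 731.7 in NC replicates 1 to 3, and in circSOD2-sh they summed to between 427.8 and 487.5. Among them miR-192-5p had 4238 counts in NC replicate 4 against 2116 to 2322, and miR-204-5p, a marker that is lost in many ccRCC, was at 0 in some libraries and reached 164 counts in circSOD2-sh replicate 2. The 5 epithelial markers, led by miR-200b-3p, summed to between 9865 and 10630 and between 6554 and 6852. The hypoxia marker miR-210-3p lay between 34.9 and 52.6 and between 20.8 and 27.6, the 3 markers of skeletal muscle between 16.4 and 78.0 and between 16.0 and 45.3 and miR-122-5p of liver between 6.56 and 11.4 and between 2.12 and 3.73.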

How the data were processed

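The authors deposited counts of reads per mature miRNA for 4 NC and 4 circSOD2-sh libraries, not normalized, and CPM that they had computed over totals larger than the listed counts. Their table of group comparisons, with fold changes and p-values, was not used. The submitters' processing notes name FastQC 0.11.2, Trimmomatic 0.36, Bowtie 1.1.1 and GRCh38, and the counting tool is not given in the sources used here. Columns were assigned to samples by their names.

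The whole count table was fitted in R 4.3.3 with edgeR 4.0.16 (low-count filter with a minimum count of 10, TMM, quasi-likelihood test, Benjamini-Hochberg adjustment). Arm ratios, after 0.5 counts were added to each arm, were fitted with limma 3.58.1 over the hairpins with both arms past that filter. A call is an adjusted p-value under 0.05. DESeq2 1.42.0, other scalings, filters and pseudocounts, and fits without single libraries served as alternatives. Shares were tested by exact permutation in scipy 1.17.1. Replicates differed by more than sampling noise in every pair (chi-square over its degrees of freedom at least 9.45), which does not tell separate cultures from separate preparations of the same RNA. Named miRNAs are the 5 with the highest mean share of known counts, those with the seed of miR-21-5p, members of the lists, and the 3 closest to each arm or to the arm ratio. The mature sequence of miR-21-3p was missing from the sequences used here, so its seed was not compared. The members and lists were chosen with earlier results of these data known. Of the lists planned, 1 is not reported.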

Additional observations from a re-analysis of the deposited data

Results flagged for a closer look

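A search for single libraries at a distance from the rest of their group of 4 was made in 38 groups and found 8, and chance alone marks about 1 in 20 groups. Of these groups 18 were on miR-21 and 20 on the marker lists.

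On miR-21 itself there was 1, the ratio of miR-21-3p to the reference panel in NC replicate 4, which was 1.58 against 1.35 to 1.38 in NC replicates 1 to 3. The other 7 were sums of markers, in CPM of the known total. In NC replicate 4 the stromal markers were at 1434 against 25.7 to 35.0, the endothelial markers at 1235 against 584.9 to 672.8, the erythroid markers at 324.1 against 46.8 to 83.1 and the leukocyte markers at 32.4 against 2.09 to 3.64. In circSOD2-sh replicate 2 the neuronal markers were at 6931 against 659.4 to 756.3, the stromal markers at 433.6 against 29.4 to 73.5 and the leukocyte markers at 20.4 against 3.20 to 4.44. Their part in the values of miR-21 in these libraries was not tested.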

How the results depend on the processing

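The rise of miR-21-3p kept its direction and an adjusted p under 0.05 in all 23 alternatives, with log2 fold changes from 0.22 to 1.64 (adjusted p from 3.34e-10 to 0.0218 over edgeR, DESeq2 and limma).

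The log2 fold change of miR-21-5p, -0.030, turned to 0.93 with library totals, 0.80 with upper-quartile normalization, 0.78 with limma on the deposited CPM plus 1 or plus 0.1, 0.014 with TMM over known miRNAs and 0.0039 with a mean of at least 50 counts. It passed the threshold as a fall with totals of known miRNAs (-0.38), those totals without miR-21 (-0.48), the reference panel (-0.24) and without NC replicate 4 and circSOD2-sh replicate 2 together (-0.25). In the same fits the medians over all miRNAs tested were -0.48, -0.58, -0.195 and -0.13, in that order. Calls there were 93 higher and 235 lower of 463, 87 and 257 of 463, 243 and 355 of 895, and 309 and 350 of 945. Without single libraries the log2 fold change of miR-21-5p lay between -0.23 and -0.045. It passed the threshold without circSOD2-sh replicate 2, where the median was -0.145, with 303 higher and 358 lower of 969. Its adjusted p ran from 7.94e-06 to 0.975 over all 23 alternatives.

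The arm ratio fell in all 15 alternatives, by -0.89 to -0.58 (adjusted p from 0.00127 to 0.0510). The fall missed the threshold only with no low-count filter, where the change was -0.71 and 425 hairpins were tested. The hairpins called were 69 of 117, with a mean of at least 50 counts in both arms 42 of 67, and with no low-count filter 81 of 425. The miRNAs called over all rows were 588 of 895, with a mean of at least 50 counts 361 of 502, and with no low-count filter 655 of 3112. The share called thus fell where miRNAs or hairpins of low counts were admitted. Of the 463 known miRNAs alone, 246 were called with TMM, 328 with known totals, 344 with those totals without miR-21 and 277 with those without miR-100-5p.

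The difference in the share of miR-21-5p, -5.73 percentage points of known counts, turned to 8.64 of all rows and 6.49 of the totals behind the deposited CPM, was -9.37 against the other known counts and was -2.23 without miR-100-5p, a total chosen after seeing the data (exact permutation p = 0.114). That of miR-21-3p, 0.0698 points, was 0.0606 against the other known counts, 0.222 of all rows, 0.179 of the totals behind the deposited CPM and 0.140 without miR-100-5p. Without single libraries the differences lay between -6.60 and -5.03 and between 0.0517 and 0.0843, and without NC replicate 4 and circSOD2-sh replicate 2 they were -6.85 and 0.0910. Their exact tests cannot pass the threshold by construction, since 4 libraries against 3 allow no p below 0.0571 and 3 against 3 none below 0.1.

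No pairing of the samples by replicate number was seen, which does not exclude one. Deviations of same-numbered libraries from their group means correlated at 0.294, -0.227, 0.159 and -0.265, and not every library correlated best with its own number. With the replicate block the log2 fold changes were -0.040 and 0.67, the change of the arm ratio was -0.71 (adjusted p = 0.0129 from limma), 574 miRNAs and 64 hairpins were called, and the share differences were -5.73 and 0.0698 points, where an exact sign-flip test of 4 pairs cannot give less than 0.125. The cause of the changes with scaling was not tested. Depth did not limit miR-21-5p, and few counts kept miR-590-5p from any test.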
